A study of Arabidopsis thaliana with 12 samples.

Results

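The tau (GSTU) and phi (GSTF) classes hold most of the glutathione transferases of *Arabidopsis thaliana*. The members described here were found by gene identifier from a list of 41 genes, GSTU1 to GSTU28 and GSTF2 to GSTF14, and 39 of them have a row among the 21882 genes of the deposited expression table. Of these 39 genes, 27 belonged to the tau class and 12 to the phi class. The rule uses gene identifiers only. GSTU21 (AT1G78360) and GSTF12 (AT5G17220) have no row and are not analysed here.

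Glutathione transferases join the tripeptide glutathione to electrophilic compounds, such as herbicides, products of lipid oxidation and some secondary metabolites, and the conjugates are then pumped into the vacuole by ABCC transporters. Some members also reduce peroxides or carry ligands without conjugating them. Tau and phi transferases are plant enzymes of the cytosol for the most part, and transcripts of several are known to accumulate after H2O2, salicylic acid, jasmonates, xenobiotics and herbicide safeners. TGA transcription factors, which bind the letters TGACG, take part in their induction.

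RNA was sequenced from leaf material of *cat2-2* seedlings, an insertion line in CAT2, the main leaf catalase that removes photorespiratory H2O2, in 4 groups of 3 libraries. Seedlings grew in liquid medium in 96-well plates, several plants to a well, and on day 7 received new medium with 10 µM pakerine, a sulfonamide found in a chemical screen, or with an equal amount of its solvent DMSO. The groups named DMSO and Pakerine were harvested after 4 days at 16 h of light per day, whereas the groups named Stress and Stress + Pakerine then spent 2 more days in sealed plates at 24 h of light per day to promote photorespiration. Age, day length and sealing therefore cannot be told apart from the stress, and no group was wild type. Stress + Pakerine also spent these 2 days in medium with pakerine. Its longer time with the compound likewise cannot be told apart from the stress in pakerine-treated seedlings. In 6 libraries the label title disagrees with the labelled treatment, so the group names follow the headings of the table.

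The table gives the mean of each group as CPM, read counts scaled to the library total, and the totals recovered from its low values lay between 28472236 and 33512708 counted reads per library. The mutated gene, CAT2, averaged 19.5 and 37.2 CPM in DMSO and Pakerine and 76.1 and 108 CPM in the stressed groups without and with pakerine. Markers of green leaf cells summed to between 16918.7 and 21022.5 CPM per group over 6 of 6 genes. Root markers were present as well, with a sum over 11 of 12 listed genes of 1599.9 and 1970.8 CPM in DMSO and Pakerine and of 665.2 and 1146.7 CPM in Stress and Stress + Pakerine, of which PYK10, a root β-glucosidase, made up the larger part. IRT1 has no row, and NRT2.1 stood at 0.0219 CPM in DMSO and 0.0104 CPM in Pakerine.

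Where all group means of a gene lay under 10 CPM, the whole reads in each of the 3 libraries of a group could be recovered from its mean, which was the case for 8463 genes and for 18 of the 39 members. Libraries are numbered within a group by their total, and a number is not shared between groups. These genes were tested with limma on log2(CPM + 0.5) and p-values were adjusted over the 8463 genes by the method of Benjamini and Hochberg, a test added after the data had been seen. The other 21 members were described without a test by the log2 ratio of the group means after adding 0.5 CPM, and a member was counted as 2-fold or more different at a log2 ratio of at least 1 or at most -1. Intervals cover counting error only. A counting half-width belongs to the log2 ratio of the means without the added 0.5 CPM, which differs from the printed ratio where means are low. That the libraries of a group are separate plant pools is stated only as biological replication, so p-values measure the spread between these libraries.

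The family was led by a small set of highly expressed members. In DMSO, GSTU19 (AT1G78380), a safener-responsive tau enzyme, stood highest with 1055 CPM per kb of coding length, followed by GSTF9 (AT2G30860) with 999 CPM per kb, GSTF10 (AT2G30870) with 589 CPM per kb, GSTF8 (AT2G47730) with 559 CPM per kb and GSTF2, a ligand-binding phi transferase, with 537 CPM per kb. These 5 genes made up between 76.4% and 77.4% of all CPM of the family in each of the 4 groups. At the other end, 18 members stayed under 10 CPM in every group and 2 of them, GSTU15 and GSTF5, under 1 CPM. The order at the top changed under stress, where GSTF2 (AT4G02520) came first with 1388 CPM per kb, ahead of GSTU19 with 1330 CPM per kb and GSTF9 with 1283 CPM per kb. The spread between libraries is not known for these 5 genes, so neighbours in this order were not tested.

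**Figure D1:**
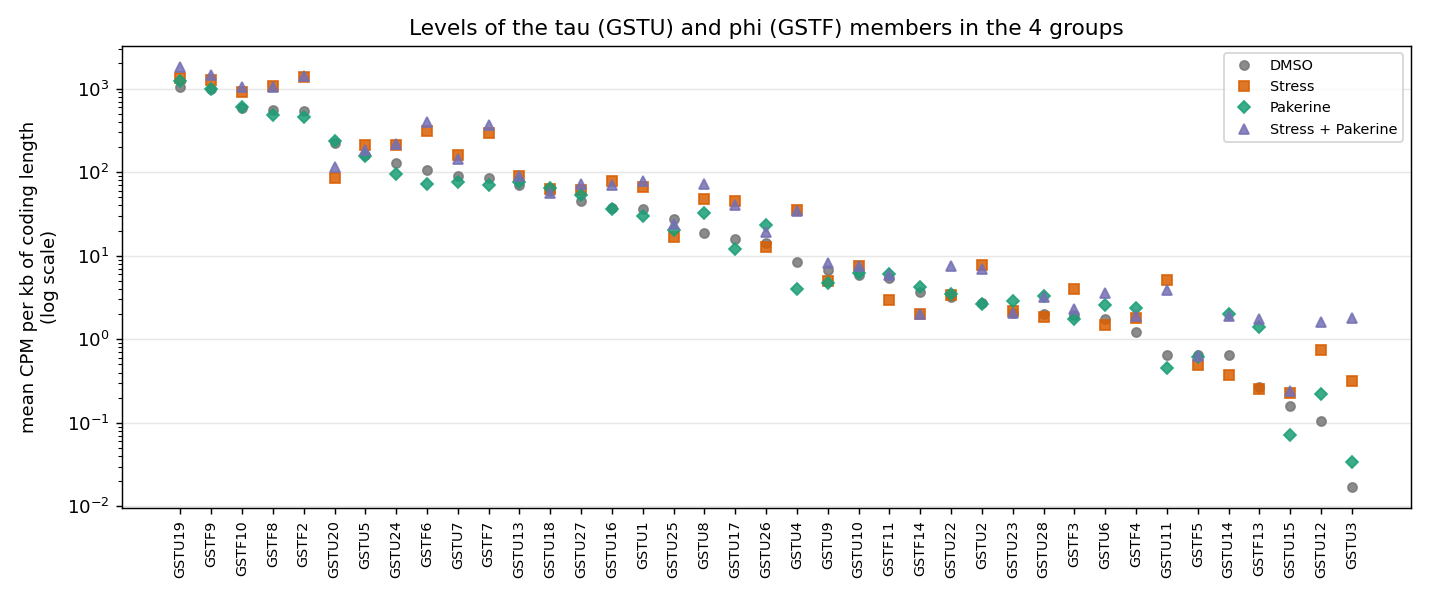
Mean level of each of the 39 members in CPM per kb of coding length, on a log axis, ordered by the level in DMSO, with 1 symbol per group. GSTU19 and GSTF9 lead at 1055 and 999 CPM per kb in DMSO, GSTU20 has both stressed groups below the others, and GSTU3 spans the widest range at the low end.

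Summed over the 39 members, the family reached 3286.4 and 3258.1 CPM in DMSO and Pakerine, against 5238.5 and 5922.3 CPM in Stress and Stress + Pakerine. The phi class carried more of this difference: its sum was 1.82 times as high in Stress as in DMSO, against 1.27 times for the tau class. Its share of the family's CPM was 59.1% and 55.3% in DMSO and Pakerine and 67.4% and 65.3% in Stress and Stress + Pakerine. Sums follow the most abundant genes. Counted by member the classes were closer, with median log2 ratios of stress against DMSO of 0.50 for phi and 0.37 for tau. Between Pakerine and DMSO the family sum differed by a factor of 0.991.

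The first comparison asked how the family responded to photorespiratory stress in mock-treated seedlings. Of the 39 members, 9 were 2-fold or more higher in Stress than in DMSO and 1 was 2-fold or more lower, beside 3.41% of all 21882 genes higher and 1.4% lower. The median log2 ratio of the members was 0.40, with 28 above 0 and 11 below, against a median of -0.06 over all genes. Among genes at 10 CPM or more in every group the median was 0.67 for 18 members and -0.04 for 11836 genes. The 9 members were GSTU11 (AT1G69930), GSTU4 (AT2G29460), GSTF7 (AT1G02920), GSTF6 (AT1G02930), GSTU17 (AT1G10370), GSTF2, GSTU8 (AT3G09270), GSTU2 and GSTU16.

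Among the abundant members of this group, GSTF7 averaged 53.0 CPM in DMSO and 184 CPM in Stress, a log2 ratio of 1.79 with a counting half-width of 0.046. GSTF6, which takes part in camalexin synthesis by conjugating indole-3-acetonitrile, averaged 66.5 CPM and 193 CPM, a log2 ratio of 1.53 with a half-width of 0.042. For GSTF2 the means were 343 CPM and 887 CPM, a log2 ratio of 1.37 with a half-width of 0.019, and 48% of its 75-base stretches are shared with AT4G02510 on the opposite strand. GSTU17, a modulator of light and drought responses, averaged 10.7 CPM and 31.1 CPM, a log2 ratio of 1.49. The means of GSTU8 were 12.5 CPM and 32.7 CPM, with a log2 ratio of 1.35, and those of GSTU16 (AT1G59700) were 26.3 CPM and 55.0 CPM, with a log2 ratio of 1.05.

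In GSTU4 the recovered values in DMSO were 5.94, 5.41 and 5.74 CPM, and the mean in Stress was 23.9 CPM, a log2 ratio of 1.98. Just below the 2-fold limit stood GSTF8, known as an early marker of defence and oxidative stress, with 443 CPM in DMSO and 844 CPM in Stress, a log2 ratio of 0.93. Among members at 10 CPM or more in every group, GSTU1 (AT2G29490), GSTU7 and GSTU24, the last an enzyme that detoxifies trinitrotoluene, followed with log2 ratios of 0.85, 0.81 and 0.73, and the low genes GSTU12 and GSTF3 had ratios of 0.88 and 0.81. GSTF10 and GSTF9 had smaller ratios of 0.61 and 0.36, and GSTU19 averaged 696 CPM and 878 CPM, a log2 ratio of 0.33.

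GSTU20 (AT1G78370) went the other way. This gene encodes an enzyme tied to far-red light signalling through FIN219 and to aliphatic glucosinolate synthesis, and it averaged 146 CPM in DMSO and 55.1 CPM in Stress, a log2 ratio of -1.39 with a counting half-width of 0.046. GSTU25 (AT1G17180), a neighbour of GSTU24 (AT1G17170) that also acts on trinitrotoluene, averaged 18.2 CPM and 11 CPM, a log2 ratio of -0.69, but its libraries in Stress held 5.23, 4.53 and 23.4 CPM. The third of these lay above the DMSO mean, so the group mean of GSTU25 does not describe its libraries.

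**Figure D2:**
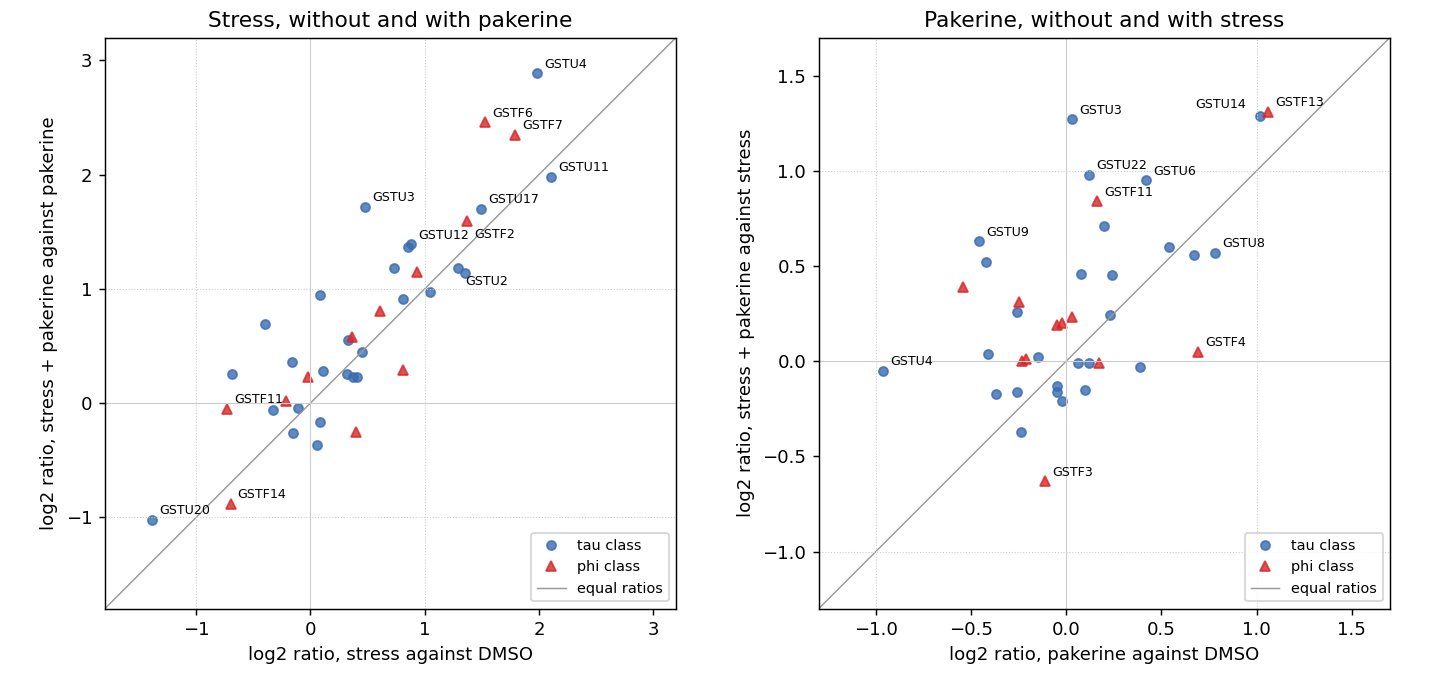
Log2 ratios of group mean CPM + 0.5 for the 39 members, stress without (x axis) against with (y axis) pakerine on the left, and pakerine without (x axis) against with (y axis) stress on the right; blue circles are tau and red triangles phi, and dotted lines mark 2-fold. On the left GSTU4, GSTF6 and GSTF7 lie above the diagonal at the upper end and GSTU20 lies at the lower end, and on the right GSTF13 and GSTU14 stand apart with ratios over 1 on both axes.

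Of the 18 members with recovered reads, 4 rose and 2 fell in Stress against DMSO at an adjusted p of at most 0.05 in limma, beside 11.7% of the 8463 genes higher and 14.4% lower. GSTU11 and GSTU12 are neighbours of 2 exons each on chromosome 1, between bases 26334250 and 26338818 of TAIR10.1. GSTU11 had 0.702, 0.23 and 0.459 CPM in the DMSO libraries and 2.63, 3.09 and 5.25 CPM in the Stress libraries. All stressed libraries lay above all DMSO libraries, and GSTU11 rose by 2.09 ± 0.23 on the log2 scale (SE, limma adjusted p = 2.65e-06). Its neighbour GSTU12 (AT1G69920), a tau enzyme with a nuclear localization signal, had 0.176, 0.0328 and 0.0328 CPM in DMSO and 0.395, 0.92 and 0.39 CPM in Stress. These groups did not overlap either, and GSTU12 rose by 0.85 ± 0.20 (SE, limma adjusted p = 0.00399), from 7 to 53 reads in all, which as a ratio of reads is 7.19 with an exact 95% counting interval of 3.26 to 18.8.

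GSTU2 (AT2G29480) had 2.07, 1.74 and 1.77 CPM in DMSO and 5.10, 2.37 and 8.40 CPM in Stress, so the stressed libraries were higher and also more scattered. It rose by 1.15 ± 0.31 (SE, limma adjusted p = 0.00885). Without the third Stress library the value was 0.77 and the adjusted p in limma 0.0658. On 59.4% of its 75-base stretches GSTU2 overlaps AT2G29485 on the opposite strand, and reads of such partners cannot be told apart because the strand setting of the counting is not given in the sources used here. GSTF3 (AT2G02930) had 1.48, 1.28 and 0.983 CPM in DMSO and 1.91, 3.22 and 2.55 CPM in Stress without overlap, and rose by 0.80 ± 0.21 (SE, limma adjusted p = 0.00923). Without the second Stress library its change was 0.64 with an adjusted p of 0.0504 in limma.

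Both members that fell belong to the phi class. GSTF11 (AT3G03190), linked to aliphatic glucosinolate synthesis, had 3.27, 3.61 and 3.51 CPM in DMSO and 2.07, 2.00 and 1.59 CPM in Stress. Its groups were tight and separate, and it fell by 0.73 on the log2 scale (SE 0.17, limma adjusted p = 0.00313), although 85.8% of its stretches are shared with AT3G03200 on the opposite strand. GSTF14 (AT1G49860) had 1.93, 2.85 and 3.57 CPM in DMSO and 1.41, 1.22 and 1.95 CPM in Stress, with the highest stressed library just above the lowest DMSO library. It fell by 0.68 (SE 0.24, limma adjusted p = 0.0409), and the call was lost without any single one of DMSO libraries 2 and 3, Stress libraries 1 and 2, Pakerine library 2 or Stress + Pakerine library 1, with adjusted p-values of up to 0.186.

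**Figure D3:**
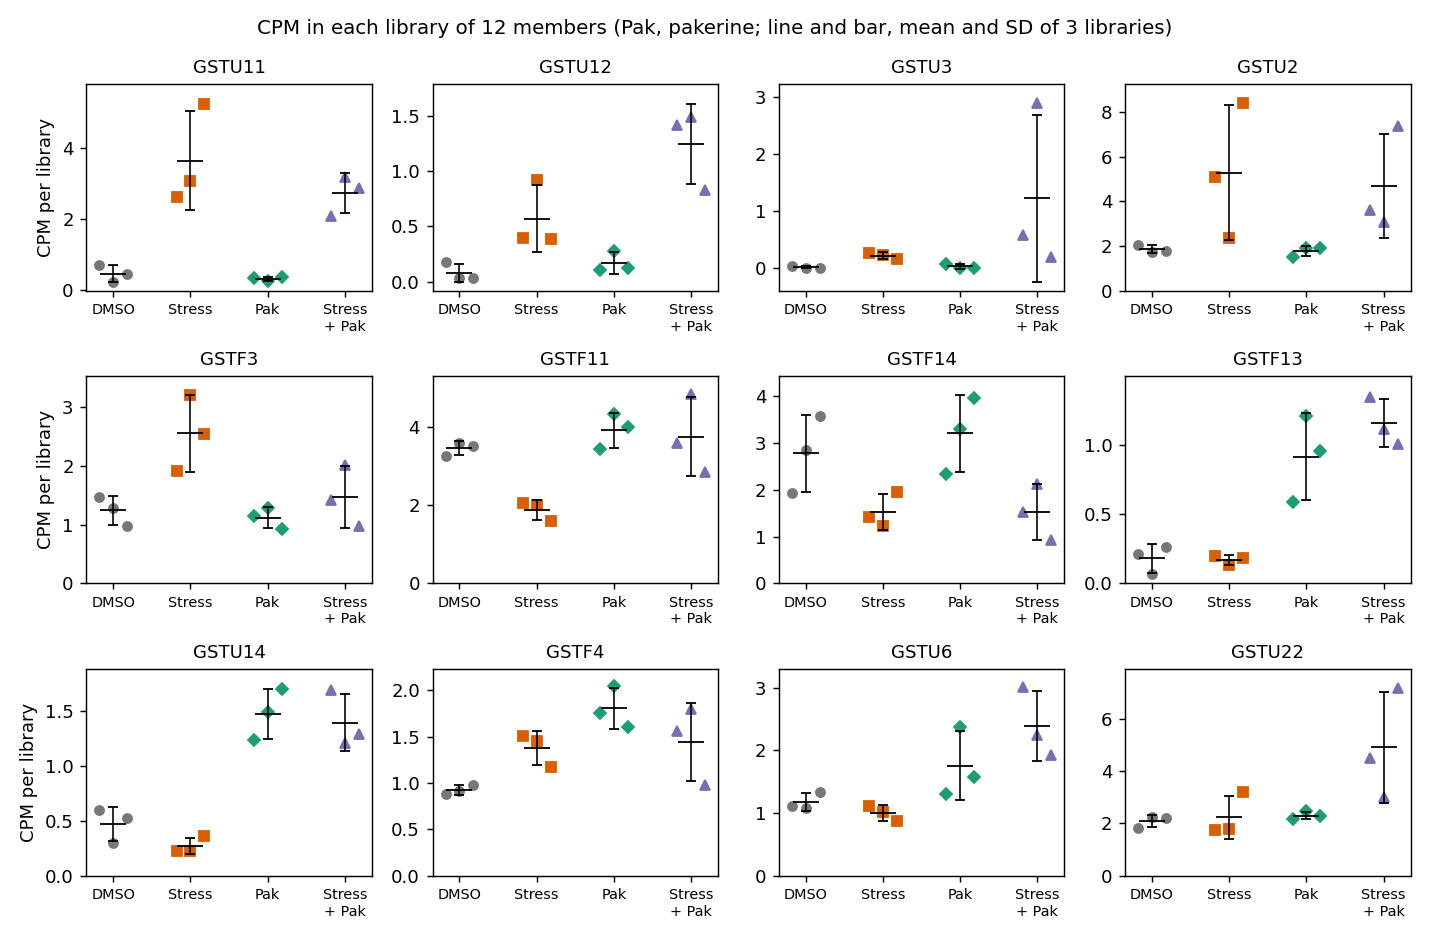
CPM in each of the 12 libraries for 12 members with recovered reads, 1 panel per gene; symbols are libraries, and the line and bar show the mean and SD of the 3 libraries of a group. GSTU11, GSTU12 and GSTU2 are high in the groups with stress, GSTF13 and GSTU14 in the groups with pakerine, and the high mean of GSTU3 in Stress + Pakerine rests on 1 library at 2.89 CPM.

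Stress in pakerine-treated seedlings was compared next, in libraries that share none with the comparison above, although limma fitted all 4 groups together. Here 13 of 39 members were 2-fold or more higher in Stress + Pakerine than in Pakerine and 1 was lower, beside 3.81% of all genes higher and 0.887% lower. The median log2 ratio was 0.55 for the members and -0.03 for all genes. GSTU4 led with 2.65, 2.37 and 3.04 CPM in Pakerine and a mean of 23.1 CPM in Stress + Pakerine, a log2 ratio of 2.89. Without the added 0.5 CPM the means of GSTU4 differed by a factor of 8.58, with a counting half-width of 0.187 on the log2 scale. GSTF6 averaged 45.6 CPM and 253 CPM, a log2 ratio of 2.46, and GSTF7 averaged 44.6 CPM and 229 CPM, a log2 ratio of 2.35. GSTU17, GSTF2, GSTU1, GSTU24, GSTF8 and GSTU8 had ratios between 1.14 and 1.7.

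GSTU20 was again the member with the lowest ratio, at 154 CPM without and 75.9 CPM with stress on top of pakerine, a log2 ratio of -1.02. Over the 39 members the log2 ratios of stress without and with pakerine had a Pearson r of 0.87 and a Spearman rho of 0.84, and 31 had the same sign. Over all 21882 genes r was 0.86 and rho 0.80, so for stress the members followed the pattern of the table as a whole. Genes are not independent replicates, and both values describe these group means.

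Among the 18 tested members, 6 rose and 1 fell in Stress + Pakerine against Pakerine, beside 11.5% and 9.19% of the 8463 genes. GSTU11 had 0.345, 0.249 and 0.358 CPM in Pakerine and 2.1, 3.2 and 2.88 CPM in Stress + Pakerine, and it rose by 1.97 ± 0.23 (SE, limma adjusted p = 4.09e-06). GSTU12 had 0.103, 0.28 and 0.119 CPM and 1.42, 1.49 and 0.827 CPM, and it rose by 1.37 ± 0.20 (SE, limma adjusted p = 5.47e-05). Neither gene's groups overlapped. GSTU2 rose by 1.1 ± 0.31 from 1.52, 1.93 and 1.91 CPM to 3.62, 3.08 and 7.38 CPM (limma adjusted p = 0.0146), and its adjusted p was 0.056 without Pakerine library 1 and 0.1 without Stress + Pakerine library 3.

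GSTU3 (AT2G29470) had at most 17 reads in each library other than the second of Stress + Pakerine. Its reads numbered 1, 0 and 0 in DMSO, 2, 0 and 0 in Pakerine, 8, 7 and 5 in Stress, and 17, 93 and 6 in Stress + Pakerine. It rose by 1.38 ± 0.34 in Stress + Pakerine against Pakerine (SE, limma adjusted p = 0.0065). Without the second Stress + Pakerine library, which held 93 of the 116 reads of that group, the change was 0.72 with an adjusted p of 0.00376 in limma. As a ratio of reads to totals, 116 against 2 gives 58.2 with an exact counting interval of 15.8 to 486, and 20 in Stress against 1 in DMSO gives 19 with an interval of 3.04 to 788. The change in Stress against DMSO was 0.48 ± 0.34 and did not pass in limma (adjusted p = 0.324), whereas without that same Stress + Pakerine library, which enters the shared spread, its adjusted p was 0.0193.

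GSTU22 and GSTU9 rose under stress with pakerine, by 0.87 ± 0.23 (limma adjusted p = 0.0111) and 0.71 ± 0.23 (limma adjusted p = 0.0381). GSTU22 (AT1G78340) had 2.17, 2.46 and 2.27 CPM in Pakerine and 4.50, 3.02 and 7.17 CPM in Stress + Pakerine, and without the last of these libraries its change was 0.58 with an adjusted p of 0.0827 in limma. GSTU9 (AT5G62480) had 4.10, 3.55 and 2.72 CPM and 5.82, 5.60 and 6.28 CPM without overlap. Its call was lost without Pakerine library 2 or 3 or any Stress + Pakerine library, with adjusted p-values of up to 0.158. GSTF14 fell by 0.90 (SE 0.24, limma adjusted p = 0.0115) from 2.34, 3.30 and 3.97 CPM to 1.52, 2.12 and 0.919 CPM, and its adjusted p was 0.0671 without Pakerine library 3 and 0.0738 without Stress + Pakerine library 3.

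Pakerine without stress left most of the family near its DMSO level. Of the 39 members, 2 were 2-fold or more higher in Pakerine than in DMSO, GSTF13 and GSTU14, and 0 were lower, beside 2.25% of all genes higher and 0.247% lower. The median log2 ratio was 0.03 for the members and -0.02 for all genes, with 20 members above 0 and 19 below. The lowest ratio was that of GSTU4, at -0.96, and only the added 0.5 CPM kept it inside the 2-fold limit. Without it the mean of GSTU4 in Pakerine was 0.472 times that in DMSO, with a counting half-width of 0.217 on the log2 scale. Its 3 recovered libraries in Pakerine, the highest of them at 3.04 CPM, lay below its 3 libraries in DMSO, the lowest of them at 5.41 CPM. GSTF6 with -0.54, GSTU9 with -0.46, GSTU25 with -0.42 and GSTU24 with -0.41 came next, and GSTU8 had the highest ratio among abundant members, 0.78, from 12.5 CPM to 21.9 CPM. GSTU9 did not pass in limma (-0.36, adjusted p = 0.374), and its change ranged from -0.65 to 0.03 with single libraries left out.

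Of the 18 tested members, 3 rose and 0 fell with pakerine alone in limma, beside 15.5% of the 8463 genes higher and 2.2% lower. GSTF13 (AT3G62760) lies at bases 23217233 to 23218312 of chromosome 3 in TAIR10.1 with 3 exons. It had 0.211, 0.0656 and 0.262 CPM in DMSO and 0.586, 1.21 and 0.955 CPM in Pakerine. It rose by 1.05 ± 0.18 (SE, limma adjusted p = 0.00058) with no overlap between the groups. GSTU14 (AT1G27140) had 0.597, 0.295 and 0.524 CPM in DMSO and 1.24, 1.49 and 1.7 CPM in Pakerine, also without overlap, and rose by 1.03 ± 0.18 (SE, limma adjusted p = 0.000645). GSTF4 (AT1G02950) had 0.878, 0.919 and 0.983 CPM and 1.76, 2.05 and 1.61 CPM, and rose by 0.69 ± 0.18 (SE, limma adjusted p = 0.0126), with an adjusted p of 0.0688 without Pakerine library 2.

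Under stress, 3 of 39 members were 2-fold or more higher in Stress + Pakerine than in Stress, GSTF13, GSTU14 and GSTU3, and 0 were lower, beside 2.58% of all genes higher and 0.101% lower. GSTU3 did not pass in limma here (0.93 ± 0.34, adjusted p = 0.0678), and without the second Stress + Pakerine library its change was 0.27 (adjusted p = 0.328), whereas without the third it was 1.42 (adjusted p = 0.00258). The median log2 ratio of the 39 members was 0.20, against 0.02 over all genes. Between pakerine without and with stress, the log2 ratios of the members had a Pearson r of 0.50 and a Spearman rho of 0.43. Over all genes r was 0.71 and rho 0.49. The sign was the same for 61.5% of the members and 66.3% of all genes, and these values describe group means only. Among abundant members GSTU8 had a log2 ratio of 0.57, GSTU20 of 0.46 and GSTU19, at 878 CPM in Stress and 1199.0 CPM in Stress + Pakerine, of 0.45. GSTF2, at 887 CPM and 894 CPM, and GSTF8, at 844 CPM and 842 CPM, had nearly equal means in the stressed groups.

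Of the 18 tested members, 6 rose and 1 fell with pakerine under stress in limma, beside 16.2% and 1.49% of the 8463 genes. GSTF13 had 0.197, 0.131 and 0.18 CPM in Stress and 1.35, 1.12 and 1.01 CPM in Stress + Pakerine, and rose by 1.31 ± 0.18 (SE, limma adjusted p = 8.48e-05). GSTU14 had 0.23, 0.23 and 0.36 CPM and 1.69, 1.21 and 1.29 CPM, and rose by 1.29 ± 0.18 (SE, limma adjusted p = 9.5e-05). Both genes therefore had all 6 libraries with pakerine above all 6 without it. GSTU6 (AT2G29440) had 1.12, 1.02 and 0.87 CPM and 3.01, 2.24 and 1.93 CPM, and rose by 0.93 ± 0.20 (SE, limma adjusted p = 0.00222).

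GSTF11, low in Stress, rose by 0.81 ± 0.17 with pakerine under stress (limma adjusted p = 0.0019), to 3.59, 4.85 and 2.85 CPM in Stress + Pakerine. GSTU22 rose by 0.95 ± 0.23 (limma adjusted p = 0.0066), and without Stress + Pakerine library 3 its adjusted p was 0.0519. GSTU12 rose by 0.72 ± 0.20 (limma adjusted p = 0.0161), a call that was lost without Stress library 1 or 3 or without Stress + Pakerine library 1 or 2, with adjusted p-values of up to 0.0866. GSTF3 fell by 0.64 (SE 0.21, limma adjusted p = 0.0416) to 1.42, 2.02 and 0.98 CPM, and this call was lost in 5 single omissions, Stress library 2 or 3, Pakerine library 2 and Stress + Pakerine library 1 or 3, with adjusted p-values of up to 0.21.

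Several root markers were higher in the groups with pakerine, as GSTF13 and GSTU14 were. Of 11 root markers, 5 were 2-fold or more higher in Pakerine than in DMSO and 0 lower, beside 2.25% and 0.247% of all genes, with a median log2 ratio of 0.76 against -0.02 over all genes. In Stress + Pakerine against Stress, 6 were higher and 0 lower, beside 2.58% and 0.101% of all genes, with a median of 1.08 against 0.02. EXPA7, an expansin of root hairs, averaged 3.19 CPM in DMSO against 11 CPM in Pakerine, and 1.87 CPM in Stress against 7.47 CPM in Stress + Pakerine. WOX5, a regulator of the root stem cell niche, had log2 ratios of -0.68 and -0.27 in these comparisons, the nitrate transporter gene NRT2.1 of -0.03 and 0.12, and PYK10 of 0.25 and 0.72. In Stress against DMSO 0 of the 11 markers were 2-fold or more higher and 1 was lower, beside 3.41% and 1.4% of all genes. This was PYK10, at a log2 ratio of -1.31, and the median of the markers was -0.54, against -0.06 over all genes. In Stress + Pakerine against Pakerine 0 were higher and 0 lower, beside 3.81% and 0.887% of all genes. PYK10 had -0.84 there, and the median of the markers was -0.26, against -0.03 over all genes. The part of root material in the values of the members was not tested, and fewer cells of a type and less RNA per cell cannot be told apart in these samples.

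The interaction asks whether the stress change differed with pakerine, where stress also came with 2 more days in the compound. By group means, GSTU3 and GSTU9 had interaction log2 ratios of at least 1, at 1.23 and 1.09, and 0 members had one of at most -1, beside 0.452% and 0.0868% of all genes. In the limma fit GSTU3 had 0.90 ± 0.48 (SE, adjusted p = 0.655), and 0.24 without the second Stress + Pakerine library. In limma 0 of the 18 tested members passed, beside 0.0354% of the 8463 genes higher and 0% lower. The member with the lowest p in limma was GSTU9, at 0.99 ± 0.33 (SE, limma adjusted p = 0.358). Its libraries held 2.84, 3.87 and 8.09 CPM in DMSO and 3.16, 3.58 and 4.14 CPM in Stress. Without the third DMSO library its value was 0.61. For GSTU25, GSTF6 and GSTU4 the interaction ratios were 0.94, 0.93 and 0.91 without a test. GSTU25 had 5.23, 4.53 and 23.4 CPM in Stress and 13.1, 12.3 and 22.9 CPM in Stress + Pakerine. Its ratio thus rests on a Stress mean that does not describe its libraries. The means of GSTF6 and GSTU4 were lower in Pakerine than in DMSO, while their stressed groups differed by log2 ratios of 0.39 and -0.05.

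Set against DMSO, the combined treatment had 13 members 2-fold or more higher and 0 lower, beside 5.8% and 1.1% of all genes. GSTF7 led with a mean of 229 CPM and a log2 ratio of 2.1, followed by GSTU4 with 1.93, GSTF6 with 1.92 and GSTU8 with 1.92. Of the 18 tested members 8 rose and 1 fell in limma, beside 25.8% and 12.7% of the 8463 genes. GSTU11, GSTU12, GSTU3 and GSTF13 rose by 1.76, 1.58, 1.41 and 1.30, with limma adjusted p-values from 8.72e-06 to 0.00303, and for GSTU3 the change was 0.75 without the second Stress + Pakerine library. GSTU2 rose by 1.05 (limma adjusted p = 0.0105), a call lost without Stress + Pakerine library 3 (0.0801), GSTU22 by 0.99, GSTU14 by 0.97 and GSTU6 by 0.77. GSTF14 fell by 0.72 (limma adjusted p = 0.0234), and the call was lost without DMSO library 2 or 3 or Stress + Pakerine library 3, with adjusted p-values of up to 0.137. This comparison shares a group with each of those above.

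Many members lie in tandem arrays, and neighbours differed in level and in ratio. On chromosome 2 the genes GSTU1 to GSTU7 (AT2G29420) lie on the minus strand between bases 12617936 and 12632538 of the TAIR10.1 assembly. In DMSO GSTU5 (AT2G29450) averaged 108 CPM and GSTU7 62.3 CPM, whereas GSTU3 and GSTU6 in the same array averaged 0.0117 CPM and 1.18 CPM. The log2 ratios of stress against DMSO ranged there from -0.16 for GSTU6 to 1.98 for GSTU4. In the array of GSTU19 to GSTU23 (AT1G78320) on chromosome 1, GSTU19 had a ratio of 0.33 beside -1.39 for GSTU20, and GSTU22 and GSTU23, at means of 2.08 CPM and 1.35 CPM in DMSO, had ratios of 0.08 and 0.06. In the array of GSTF4 to GSTF7, the ratios were 1.53 and 1.79 for GSTF6 and GSTF7 but 0.40 and -0.21 for GSTF4 and GSTF5.

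**Figure D4:**
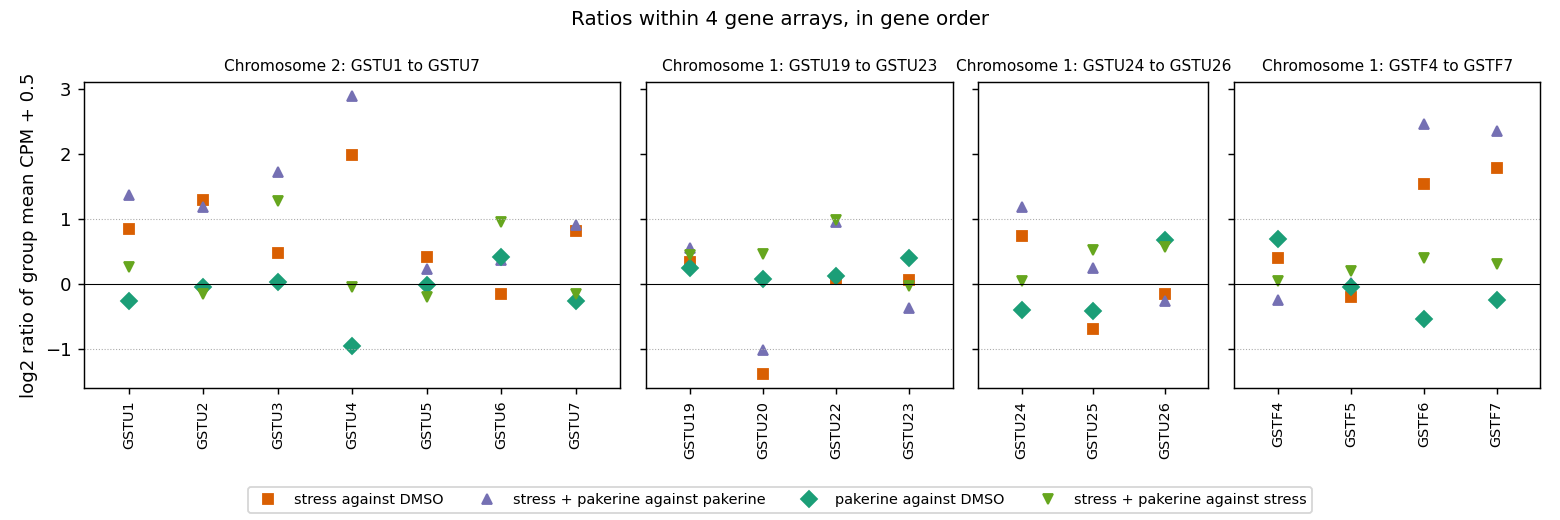
Log2 ratios of group mean CPM + 0.5 in 4 comparisons for the members of 4 gene arrays, in gene order; dotted lines mark 2-fold. GSTU4 reaches 1.98 and 2.89 in the stress comparisons beside GSTU5 at 0.41 and 0.23, and GSTU20 is at -1.39 and -1.02 beside GSTU19 at 0.33 and 0.55.

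Of the 7 promoters of the array on chromosome 2, those of GSTU4 and GSTU6 are shown because these genes had the highest and the lowest ratio of stress against DMSO there, those of GSTU1 and GSTU7 because they held TGACG more than once, and that of GSTU11 on chromosome 1 because its ratio was the highest of the 39 members. Each run is the 250 bases upstream of the gene start in TAIR10.1 on the strand of the gene, read 5′ to 3′, and capitals mark TGACG on either strand, where the reverse strand reads CGTCA. The windows are chr2:12632539-12632788 for GSTU1, chr2:12627892-12628141 for GSTU4, chr2:12621232-12621481 for GSTU6, chr2:12618900-12619149 for GSTU7 and chr1:26338819-26339068 for GSTU11, all on the minus strand.
GSTU1: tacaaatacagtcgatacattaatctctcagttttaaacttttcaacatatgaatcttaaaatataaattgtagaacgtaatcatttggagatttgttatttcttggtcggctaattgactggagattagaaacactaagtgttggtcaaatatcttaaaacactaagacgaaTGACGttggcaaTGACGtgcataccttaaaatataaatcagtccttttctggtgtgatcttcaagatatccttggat
GSTU4: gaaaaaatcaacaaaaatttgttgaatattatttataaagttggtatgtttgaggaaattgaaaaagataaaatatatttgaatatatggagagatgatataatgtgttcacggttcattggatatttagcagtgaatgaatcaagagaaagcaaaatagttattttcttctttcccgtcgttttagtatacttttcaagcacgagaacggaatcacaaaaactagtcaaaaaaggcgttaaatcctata
GSTU6: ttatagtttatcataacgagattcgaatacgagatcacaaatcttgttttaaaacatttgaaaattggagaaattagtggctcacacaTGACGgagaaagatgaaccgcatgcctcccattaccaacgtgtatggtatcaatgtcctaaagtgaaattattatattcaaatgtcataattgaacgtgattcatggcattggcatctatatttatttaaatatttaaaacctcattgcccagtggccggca
GSTU7: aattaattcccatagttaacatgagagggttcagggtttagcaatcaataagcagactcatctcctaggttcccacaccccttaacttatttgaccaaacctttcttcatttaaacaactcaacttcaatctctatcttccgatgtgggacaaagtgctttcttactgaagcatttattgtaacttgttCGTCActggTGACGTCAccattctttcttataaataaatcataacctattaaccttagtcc
GSTU11: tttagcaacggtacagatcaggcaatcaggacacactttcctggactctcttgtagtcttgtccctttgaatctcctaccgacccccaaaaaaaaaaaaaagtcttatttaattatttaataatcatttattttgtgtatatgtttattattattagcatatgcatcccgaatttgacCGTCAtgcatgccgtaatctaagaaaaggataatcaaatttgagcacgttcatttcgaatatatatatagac

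GSTU7 held TGACG 3 times, in part as the overlapping palindrome TGACGTCA, GSTU1 held it 2 times, GSTU6 and GSTU11 once each, and GSTU4 not at all. Of the array's other promoters, those of GSTU3 and GSTU5 held it once and that of GSTU2 did not. The window of GSTU2 overlaps the gene GSTU1, and those of GSTU5 and GSTU7 overlap AT2G29452 and AT2G00850. Over the 39 members, 14 promoters (35.9%) held TGACG at least once, against 19.2% of 21026 genes of the table with a window of the same length. Of the 9 members that were 2-fold or more higher in Stress than in DMSO, 1 held it, GSTU11, and of the other 30 members 13 did. In Stress + Pakerine against Pakerine the shares were close, with 5 of the 13 higher members (38.5%) and 9 of the other 26 (34.6%). The median log2 ratio of stress against DMSO was 0.55 for the 14 members with the motif and 0.33 for the 25 without, and with pakerine the medians were 0.86 and 0.25. TTGAC, the core of the W-box bound by WRKY factors, was present in 56.4% of the members' promoters and 45.2% of those of the table, and CACGTG, the G-box, in 7.69% and 7.2%. A match describes the letters of the window and not a binding site.

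Near-identical copies differed in level in some pairs and not in others. GSTF2 and GSTF3 are 94.5% identical over their coding sequences, but averaged 343 CPM and 1.25 CPM in DMSO. They share no exact stretch of 75 bases, the read length before trimming. Shorter shared stretches, which matter for trimmed reads, were not counted for any pair. GSTF6 and GSTF7, neighbours that are 94.7% identical, averaged 66.5 CPM and 53.0 CPM in DMSO and had means near each other in the other groups as well, and 4.77% and 4.65% of their stretches occur in the other gene, so that a part of their reads could not be placed in 1 of them with certainty. GSTU13 (AT1G27130), an enzyme of indole glucosinolate metabolism, and GSTU14 are adjacent and 87.4% identical, and their log2 ratios of pakerine against DMSO were 0.12 and 1.02. GSTU15 and GSTU16, 84.4% identical, averaged 0.112 CPM and 26.3 CPM in DMSO. The pair of GSTU17 and GSTU18, 81.6% identical with overlapping transcripts, had log2 ratios of 1.49 and 0.08 in Stress against DMSO. Genes on the opposite strand also cover 50.9% of the stretches of GSTU7 and 25.7% of those of GSTU6.

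The remaining members stayed inside the 2-fold limits with stress. GSTU5, GSTU10 (AT1G74590), GSTU13, GSTU18 (AT1G10360), GSTU23, GSTU26 and GSTU27 had log2 ratios between -0.15 and 0.45 in Stress against DMSO, and GSTU15, GSTU28 (AT1G53680), GSTF4 and GSTF5 between -0.21 and 0.40. GSTU10, with 4.21, 3.74 and 4.46 CPM in DMSO and 5.46, 5.22 and 5.19 CPM in Stress, did not overlap between the groups but did not pass in limma (0.32 ± 0.13, adjusted p = 0.073). GSTU26 (AT1G17190) averaged 9.47 CPM in DMSO and 15.3 CPM in Pakerine, a log2 ratio of 0.67, and GSTU28 had 1.62, 0.755 and 1.74 CPM in DMSO and 1.79, 2.77 and 2.09 CPM in Pakerine, a change of 0.57 ± 0.24 that did not pass in limma (adjusted p = 0.113).

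Other genes of glutathione metabolism and detoxification were set beside the family by group means, where 3.41% of all genes were 2-fold or more higher and 1.4% lower in Stress than in DMSO, with a median log2 ratio of -0.06. Of 13 genes of other glutathione transferase classes, 1 was 2-fold or more higher in Stress than in DMSO, GSTL1 of the lambda class, at 0.146 CPM and 0.98 CPM, and 0 were lower, with a median log2 ratio of 0.07. In glutathione synthesis and turnover, 2 of 11 were higher and 0 lower, with a median of 0.12. Those were GR1, the cytosolic and peroxisomal glutathione reductase, at 78.9 CPM and 163 CPM, and GGCT2;1, a glutathione-degrading cyclotransferase, at 0.998 CPM and 3.35 CPM. Among 9 transporters of glutathione or its conjugates, 1 was higher, ABCC4, from 32.7 CPM to 67.4 CPM, and the median was 0.48.

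The list of other detoxification genes had 6 of 12 genes 2-fold or more higher in Stress than in DMSO, 0 lower and a median log2 ratio of 1.01, against 3.41%, 1.4% and -0.06 for all genes. UGT74E2, a glycosyltransferase of indole-3-butyric acid, averaged 25.1 and 10.7 CPM in DMSO and Pakerine and 95.4 and 84.6 CPM in Stress and Stress + Pakerine, with its lowest mean in Pakerine like GSTU4 and GSTF6. With pakerine alone 0 of the 12 were higher and 2 lower, UGT74E2 and DTX3, beside 2.25% and 0.247% of all genes. Of the 5 camalexin genes, 3 were higher with stress and 4 with stress on top of pakerine, at medians of 1.34 and 2.77, against 3.41% and 3.81% of all genes and medians of -0.06 and -0.03. PAD3, the last enzyme of that pathway, averaged 0.833 and 0.702 CPM in DMSO and Pakerine, 5.00 CPM in Stress and 15.1 CPM in Stress + Pakerine.

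Of the TGA factors and partners, 1 of 11 was 2-fold or more higher in Stress than in DMSO, beside 3.41% of all genes. It was the NAC factor ANAC102, from 71.9 CPM to 162 CPM. The median log2 ratio of the list was 0.26, against -0.06 over all genes. ANAC032, from 10.2 CPM to 20.9 CPM, fell just under this limit after 0.5 CPM was added. TGA2, TGA3 and TGA6 had ratios of -0.06, -0.02 and 0.04, and TGA5 and TGA7 of 0.64 and 0.55. Of 8 listed anthocyanin genes 3 have a row. Against DMSO, 1 of these was 2-fold or more higher in Stress and in Pakerine, beside 3.41% and 2.25% of all genes. It was CHS, chalcone synthase, at 11.6 CPM in DMSO, 25.6 CPM in Stress and 26.4 CPM in Pakerine.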

How the data were processed

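RNA-seq of 12 libraries in 4 groups was used. According to the labels and methods, single-end reads were trimmed with Trim Galore 0.3.3, aligned to TAIR10 with TopHat2 2.1.0 and counted with featureCounts of Subread 1.4.6. Whether the counting used strand, and how reads with several placements were treated, is not given in the sources used here. The authors deposited mean CPM per group, without TMM scaling. Their columns of log2 fold changes, p-values, FDR and calls for 4 pairwise comparisons and the interaction were not used. The number of unused columns with values per sample is 0.

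Library totals came from the steps between low means, which whole reads met in 100% of the lowest values in every group. Every combination of 3 whole read numbers was then searched for means under 10 CPM, and for members under 30 CPM, and means with several solutions are given as means only. All means under 10 CPM had exactly 1 solution. This gave reads for 38.7% of genes and for 28.1% of those with at least 1 CPM. The test had been planned for at least 95%, so the log2 ratio of means without a test became the main measure, and limma 3.58.1 on the 8463 recovered genes (all 4 groups in 1 fit, trended variance, log2(CPM + 0.5), Benjamini-Hochberg) was added after the data were seen. It cannot reach genes at 10 CPM or more in any group. The recovery and the fit were tested on simulated data.

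The members and lists were chosen with earlier results of these data known. Named genes are the 6 called members with the largest change in each comparison, with neighbours and near copies added, and some genes of each list, which were chosen after their values were seen. Promoter windows, coding lengths and shared stretches of 75 bases come from the RefSeq annotation of TAIR10.1. Alternatives were pseudocounts of 0.1 and 1, a mean of at least 1 CPM, median-ratio scaling, voom weights, only the groups compared, each library left out, and other thresholds. Python 3.11.15, numpy 2.4.6, pandas 2.3.3, scipy 1.17.1 and R 4.3.3 were used.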

Additional observations from a re-analysis of the deposited data

How the results depend on the processing

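No paired analysis was possible because the table columns are group means without replicate numbers and the recovered libraries carry no label. The counts by 2-fold ratio are given first, higher members before lower ones, and a cause of a change was not tested beyond the setting itself. At a log2 ratio of 0.58 in place of 1, stress against DMSO had 16 and 4 members, pakerine against DMSO 5 and 1, stress + pakerine against pakerine 2 lower, stress + pakerine against stress 9 and 1, stress + pakerine against DMSO 22 and 2, and the interaction 7 and 1. At a log2 ratio of 2 these were 1 and 0 for stress, 0 higher for pakerine, 3 and 0 for stress with pakerine, 0 higher for pakerine under stress, 1 higher for both against DMSO and 0 higher for the interaction. With a pseudocount of 1, pakerine alone, pakerine under stress and the interaction had 0 members higher. With a pseudocount of 0.1, pakerine under stress had 6 higher, pakerine alone 1 lower and stress with pakerine 2 lower. Among genes with a mean of at least 1 CPM, pakerine alone and pakerine under stress had 0 higher and the interaction 1. Median-ratio scaling left 0 lower in stress with pakerine.

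By limma, an adjusted p of 0.01 with a log2 change of 1 left 2 higher and 0 lower for stress, 3 and 0 for stress with pakerine, 2 and 0 for pakerine under stress, and 4 and 0 for both against DMSO. Among genes with a mean of at least 1 CPM, 1 member was higher for pakerine alone, 3 for pakerine under stress and 4 for both against DMSO. GSTF14 lost its call in stress against DMSO with median-ratio scaling (adjusted p = 0.0572) and voom weights (0.0511), which left 1 lower. In stress + pakerine against stress, GSTF3 lost its call with a pseudocount of 0.1 (0.0523) and with only the groups compared (0.0755), which left 0 lower, and GSTU12 with a pseudocount of 0.1 (0.0707), median-ratio scaling (0.0523) and only the groups compared (0.0522). GSTU3 in stress against DMSO passed with only the groups compared (0.0103), and GSTU10 with median-ratio scaling (0.0182). Leaving out each library gave 1 to 2 lower for stress, 3 to 6 higher and 0 to 1 lower for stress with pakerine, 0 to 1 lower for pakerine under stress and 0 to 1 lower for both against DMSO. No call of a member reversed under these limma settings. Other counts stayed within 1.5 times of those given. At 10 CPM or more in a group the table does not give the spread between libraries, so ratios of abundant members carry counting error only.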
